A study of Rattus norvegicus with 6 samples.

Results

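Fatty acid oxidation in mitochondria and peroxisomes was examined in the renal cortex through 35 genes, chosen by name as members of the pathway. They run from the carnitine shuttle to the peroxisomal oxidases and the regulators of the process. The choice was made with earlier results of these data known. All 35 genes had a probe that passed the filter on dim signals, out of 31637 genes, unnamed transcripts and unnamed probes tested, and each chosen probe was well above background on all 6 arrays. The samples were renal cortex from 6 male Sprague-Dawley rats of the Crl:CD(SD) stock, bought at 5 weeks of age, with 1 array per animal and between 41503 and 43823 probes well above background on each. Over the next 4 weeks 3 animals received corn oil and 3 received tricresyl phosphate, an ester of phosphoric acid known as a plasticiser and an additive of fluids and lubricants, at 200 mg/kg/day. The route of dosing and the vehicle of the treated animals were not given in the sources used here.

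Proximal tubule cells of the cortex draw most of their energy from fatty acids. Long-chain acyl groups enter mitochondria on carnitine and are shortened there by acyl-CoA dehydrogenases, hydratases, dehydrogenases and thiolases, which hand electrons to the respiratory chain through the electron transfer flavoprotein. Peroxisomes shorten very long, branched and bile acid side chains with acyl-CoA oxidases, which hand electrons to oxygen. The nuclear receptor PPAR alpha, which binds fatty acids, is known to induce many genes of both organelles.

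By the main site of their proteins, 18 of the genes were classed as mitochondrial, 8 as peroxisomal, 3 as located in both organelles and 6 as other. The last class holds secreted, membrane, cytosolic and nuclear proteins. It also holds the regulator Pdk4, although its kinase is mitochondrial, so Pdk4 is not counted with the mitochondrial members below. Levels below are log2 processed signals relative to the 75th percentile of the same array, and differences are tricresyl phosphate minus corn oil on the log2 scale, each given ± its SE from limma (n = 3 animals per group). Signals of different probes are not comparable as amounts of RNA, so each gene was compared only with itself across animals. In bulk tissue, fewer cells of a type and less RNA per cell cannot be told apart.

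Differences of the mitochondrial genes were small, those of the peroxisomal genes were wider, with Acox2 and Hsd17b4 lowest, and none of either passed the test over all genes. Mitochondrial members had a median difference of 0.036, with 14 of 18 above 0. Peroxisomal members had a median difference of −0.21, with 3 of 8 above 0. They also varied more within groups, with a median SD of 0.22 against 0.13 for the mitochondrial members. Their median SE was 0.16 against 0.11. Over all genes tested the median was −0.038, and 40.8% of the differences lay above 0, close to the share of the peroxisomal members. The peroxisomal median depended on the classing, which was made from general knowledge. With Ech1 and Eci2 in place of Crot and Acot3, the 8 genes of peroxisomal oxidation had a median of 0.00023, with 4 above 0. With limma, 0 of the 35 members passed an adjusted p under 0.05, as did 0 of all 31637 genes, or 0%. At an unadjusted limma p under 0.05, 0 members were higher, where 1.63% of all genes were. At the same threshold 2 members were lower, Hsd17b4 and Acox2, where 3.86% of all genes were lower and 5.49% passed in either direction. The distance between the peroxisomal and the mitochondrial median was −0.25 with all animals, −0.10 without tricresyl phosphate replicate 3 and −0.22 within the slide that held 5 of the arrays, all but corn oil replicate 1. Without tricresyl phosphate replicate 3 the peroxisomal median was −0.031.

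**Figure D1:**
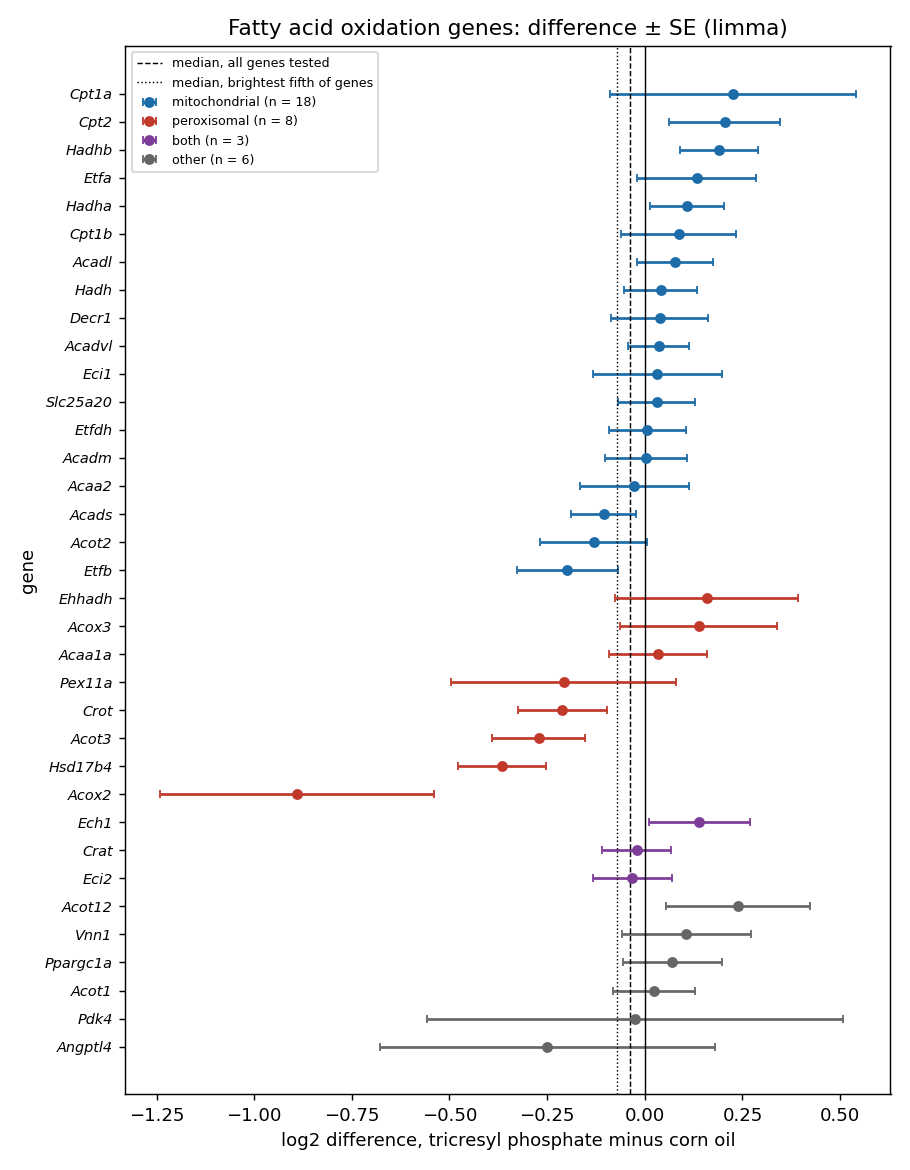
Difference in log2 level, tricresyl phosphate minus corn oil, for 35 genes of fatty acid oxidation, with SE from limma (3 animals per group); colours give the compartment, and broken lines the medians of all genes tested (−0.038) and of the fifth with the highest signal (−0.072). The 18 mitochondrial points lie between −0.2 and 0.23, and Acox2 (−0.89) and Hsd17b4 (−0.37) lie farthest to the left.

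Promoter windows of 300 bases, from 250 before to 50 after the start of transcription, were found in RefSeq (GRCr8) for 29 of the 35 genes. PPAR alpha pairs with the retinoid X receptor on direct repeats of the hexamer AGGTCA with 1 base between the copies. This repeat, sought on both strands, stood in 0 of these 29 windows and in 0.0538% of all 33469 windows. Its looser form, with AGGNCA for each copy and therefore including the first, stood in 0 of the 29 and in 0.415% of all. A single AGGTCA, sought on both strands after the values were seen, stood in 6 of the 29 windows and in 16.2% of all. No match says only that these letters are not in these windows. The windows of Hsd17b4 (chr18:45515177-45515476 on the plus strand) and Acox2 (chr15:19090705-19091004 on the plus strand) are shown because these were the 2 members below an unadjusted p of 0.05. Capitals mark this hexamer, which starts 56 bases before the start of Hsd17b4 and does not occur in the window of Acox2.
Hsd17b4: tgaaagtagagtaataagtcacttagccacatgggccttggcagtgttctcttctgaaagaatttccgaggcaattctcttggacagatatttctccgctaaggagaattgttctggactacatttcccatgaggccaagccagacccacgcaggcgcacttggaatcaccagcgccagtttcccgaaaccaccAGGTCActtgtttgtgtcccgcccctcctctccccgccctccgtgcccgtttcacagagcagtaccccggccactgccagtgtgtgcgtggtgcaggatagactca
Acox2: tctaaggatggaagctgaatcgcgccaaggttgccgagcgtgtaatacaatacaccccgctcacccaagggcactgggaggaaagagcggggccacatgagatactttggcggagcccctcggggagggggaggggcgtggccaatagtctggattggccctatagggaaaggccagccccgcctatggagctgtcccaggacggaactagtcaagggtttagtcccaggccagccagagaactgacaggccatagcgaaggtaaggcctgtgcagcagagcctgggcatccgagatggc

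Hadha and Hadhb, which encode the subunits of the mitochondrial trifunctional protein, are transcribed away from each other. Their windows are shown because they overlap, so that both genes read from the same stretch of DNA in opposite directions. The window of Hadha is chr6:31907551-31907850 on the plus strand and that of Hadhb chr6:31907451-31907750 on the minus strand. Capitals mark the 200 bases that the windows share, each printed on the strand of its gene.
Hadha: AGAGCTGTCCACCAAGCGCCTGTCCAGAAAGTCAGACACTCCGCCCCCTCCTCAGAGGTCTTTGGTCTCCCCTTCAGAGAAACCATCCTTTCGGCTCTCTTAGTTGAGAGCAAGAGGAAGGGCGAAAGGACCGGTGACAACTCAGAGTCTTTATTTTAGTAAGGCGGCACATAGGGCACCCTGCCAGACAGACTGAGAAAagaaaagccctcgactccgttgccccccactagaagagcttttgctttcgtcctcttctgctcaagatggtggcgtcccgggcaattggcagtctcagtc
Hadhb: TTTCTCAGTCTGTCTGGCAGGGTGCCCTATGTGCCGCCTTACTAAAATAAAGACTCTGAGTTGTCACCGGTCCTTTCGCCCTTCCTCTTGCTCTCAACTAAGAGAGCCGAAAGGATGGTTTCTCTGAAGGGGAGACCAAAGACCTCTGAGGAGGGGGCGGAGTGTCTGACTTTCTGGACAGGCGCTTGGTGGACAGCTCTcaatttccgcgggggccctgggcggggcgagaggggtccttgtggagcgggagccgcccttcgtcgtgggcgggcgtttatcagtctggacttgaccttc

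Among the peroxisomal enzymes, Hsd17b4 was at 0.776-fold with tricresyl phosphate. It encodes the D-bifunctional protein, which performs the hydratase and dehydrogenase steps for branched chains and bile acid side chains. Its level was 6.44, 6.23 and 6.22 in corn oil replicates 1, 2 and 3, and 5.99, 5.78 and 6.02 in tricresyl phosphate replicates 1, 2 and 3. All 3 treated animals lay below all 3 corn oil animals, as was the case for 7.95% of all genes. The difference was −0.37 ± 0.11, with a 95% interval of −0.64 to −0.09, and limma gave p values of 0.0169 unadjusted and 0.811 adjusted. The second probe of the gene, at 4.14, 4.09 and 4.18 with corn oil and 3.91, 3.76 and 3.99 with tricresyl phosphate, also kept the groups apart, with a difference of −0.25. Within the slide shared by 5 arrays the difference of the first probe was −0.29, and no alternative processing brought its adjusted p below 0.693.

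Acox2 encodes the branched-chain acyl-CoA oxidase, which opens the peroxisomal oxidation of bile acid precursors. Its level was −3.61, −3.36 and −2.29 in the corn oil animals and −3.94, −4.20 and −3.80 in the treated animals. The groups did not overlap, but corn oil replicate 3 lay far above the other 5 animals. The difference was −0.89 ± 0.35, or 0.539-fold, and limma gave an adjusted p of 0.811. Without corn oil replicate 3 it was −0.49, and within the shared slide −1.15. Acox3, the oxidase of pristanoyl-CoA, a branched chain derived from phytol, differed by 0.14 ± 0.20, with corn oil replicate 1 lowest at −3.82 and the other 5 animals between −3.34 and −3.06.

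Ehhadh and Acaa1a belong to the peroxisomal route for straight chains, and both overlapped between groups. Ehhadh, the L-bifunctional enzyme, was at 3.49, 3.00 and 3.49 with corn oil and 3.65, 3.76 and 3.05 with tricresyl phosphate, a difference of 0.16 ± 0.24. Each group held 1 low animal, corn oil replicate 2 and tricresyl phosphate replicate 3. Acaa1a, a peroxisomal thiolase, was at 6.72, 6.59 and 6.32 with corn oil and 6.64, 6.59 and 6.49 with tricresyl phosphate, so the groups overlapped. Its difference was 0.033 ± 0.13, and its 3 probes ranged from −0.06 to 0.04. It has a close paralogue, Acaa1b, whose transcripts its probes may also bind.

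Acot3 and Crot, the members classed as peroxisomal for release and transfer of acyl groups, had differences below 0, like Hsd17b4, and neither passed the adjusted threshold. Acot3, a peroxisomal acyl-CoA thioesterase, was at 1.72, 1.58 and 1.66 with corn oil and 1.57, 1.39 and 1.19 with tricresyl phosphate. Corn oil replicate 2 and tricresyl phosphate replicate 1 all but met, and the difference was −0.27 ± 0.12. Limma gave an adjusted p of 0.811, and the difference was −0.18 without tricresyl phosphate replicate 3. Crot, the carnitine octanoyltransferase that passes shortened chains out of peroxisomes, was at 2.88, 3.12 and 2.97 with corn oil and 2.90, 2.80 and 2.63 with tricresyl phosphate. Tricresyl phosphate replicate 1 lay above corn oil replicate 1, and the difference was −0.21 ± 0.11, or −0.14 without tricresyl phosphate replicate 3. In all, groups did not overlap in 3 lower members of the 35, Hsd17b4, Acox2 and Acot3, and in 1 higher member, Hadhb. Of all genes, 7.95% were apart in the lower direction and 3.85% in the higher.

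**Figure D2:**
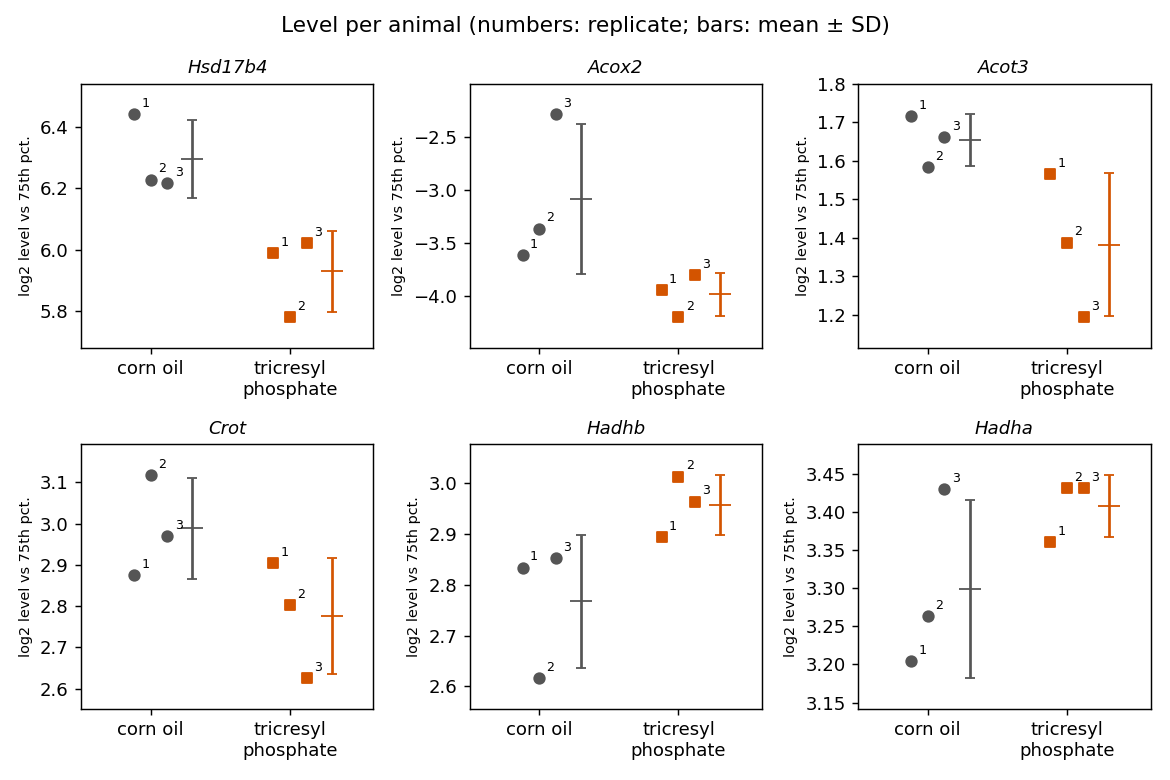
Log2 level relative to the array's 75th percentile in each animal (circles corn oil, squares tricresyl phosphate, numbers the replicate), with group mean ± SD of 3 animals, for 6 members. The treated animals lie below the corn oil animals in Hsd17b4, Acox2 and Acot3 and above them in Hadhb, and the groups overlap in Crot and Hadha; the vertical scales differ and do not start at 0.

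The members located in both organelles overlapped between groups. Ech1, an isomerase that shifts double bonds, was at 5.21, 4.92 and 5.20 with corn oil and 5.26, 5.39 and 5.09 with tricresyl phosphate. Its groups overlapped, with a difference of 0.14 ± 0.13. Eci2, an enoyl-CoA isomerase, differed by −0.032 ± 0.10, and Crat, the carnitine acetyltransferase, by −0.021 ± 0.088. The other probe of Crat gave 0.22.

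The groups overlapped in each of the transcripts for the entry of long chains into mitochondria, Cpt1a, Cpt2, Cpt1b and Slc25a20. Cpt1a, the outer membrane carnitine palmitoyltransferase that limits the rate of entry, was at 3.54, 3.80 and 2.61 with corn oil and 3.69, 3.62 and 3.32 with tricresyl phosphate. Corn oil replicate 3 was the lowest of the 6 animals, and the difference of 0.23 ± 0.31 became −0.13 without it. Cpt2, the inner membrane enzyme, was at 3.78, 3.47 and 3.51 with corn oil and 3.88, 3.92 and 3.57 with tricresyl phosphate. Its groups overlapped through tricresyl phosphate replicate 3, and the difference was 0.20 ± 0.14, for which limma gave an adjusted p of 0.814. Cpt1b, the muscle form, differed by 0.086 ± 0.15, and its 3 probes ranged from −0.07 to 0.46. Slc25a20, the carrier that exchanges acylcarnitine for carnitine, differed by 0.031 ± 0.098.

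The acyl-CoA dehydrogenases, which take the first electrons from chains of falling length, were among the steadiest members. Acadvl, for very long chains, lay between 4.40 and 4.49 in the corn oil animals and between 4.46 and 4.49 in the treated animals, a difference of 0.035 ± 0.078. On this probe the SD within groups was 0.035, and 0.853% of all genes had a smaller one. The other probe of Acadvl differed by 0.16. Acadl, for long chains, was at 6.35, 6.13 and 6.16 with corn oil and 6.27, 6.36 and 6.24 with tricresyl phosphate, a difference of 0.077 ± 0.097. Acadm, for medium chains, was at 6.47, 6.48 and 6.28 with corn oil and 6.34, 6.55 and 6.36 with tricresyl phosphate, a difference of 0.0034 ± 0.105. In both genes tricresyl phosphate replicate 2 was highest and the groups overlapped. Acads, for short chains, was at 5.57, 5.44 and 5.56 with corn oil and 5.45, 5.38 and 5.43 with tricresyl phosphate. These groups overlapped through corn oil replicate 2, and the difference was −0.10 ± 0.083.

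Of the later steps of the mitochondrial spiral, Hadhb alone kept the groups apart, narrowly. Hadhb, the thiolase subunit of the trifunctional protein, was at 2.83, 2.62 and 2.85 with corn oil and 2.89, 3.01 and 2.96 with tricresyl phosphate. Every treated animal lay above every corn oil animal, with a difference of 0.19 ± 0.10, or 1.14-fold. Limma gave an adjusted p of 0.811, and the difference was 0.11 without corn oil replicate 2. Hadha, whose gene shares the promoter stretch shown above and which carries the hydratase and long-chain dehydrogenase activities, was at 3.20, 3.26 and 3.43 with corn oil and 3.36, 3.43 and 3.43 with tricresyl phosphate. Corn oil replicate 3 lay among the treated animals, the difference was 0.11 ± 0.094, and the 3 probes of the gene ranged from 0.11 to 0.17. Hadh, the dehydrogenase for shorter chains, differed by 0.040 ± 0.094, and its other probe by 0.22. Acaa2, a thiolase, differed by −0.027 ± 0.14 and on its other probe by 0.029, and the auxiliary enzymes for unsaturated chains, Decr1 and Eci1, by 0.038 ± 0.12 and 0.033 ± 0.16.

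The electron transfer flavoprotein, which collects electrons from the dehydrogenases, had subunits with differences of opposite sign. Etfa, the alpha subunit, was at 3.42, 3.00 and 3.26 with corn oil and 3.34, 3.19 and 3.55 with tricresyl phosphate, and these groups overlapped with a difference of 0.13 ± 0.15. Etfb, the beta subunit, was at 6.54, 6.27 and 6.41 with corn oil and 6.42, 6.09 and 6.12 with tricresyl phosphate, and tricresyl phosphate replicate 1 lay inside the corn oil range. The difference of Etfb was −0.20 ± 0.13, and limma gave an adjusted p of 0.811. Etfdh, the oxidoreductase that passes the electrons to ubiquinone, differed by 0.0069 ± 0.098.

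For 17 of the 18 mitochondrial members the 95% interval of the difference lay within a change of 1.5-fold in either direction, the exception being Cpt1a. Of the 8 peroxisomal members 3 had such an interval, and for Acox2, Acox3, Ehhadh, Hsd17b4 and Pex11a a larger change was not excluded by it. Pdk4, a mitochondrial kinase classed as other, had an interval of −1.32 to 1.27, which did not exclude a larger change either.

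The other thioesterases, which release free fatty acids from acyl-CoA, gave small differences. Acot1, cytosolic, differed by 0.024 ± 0.11. Acot2, mitochondrial, was at 4.40, 4.0 and 4.17 with corn oil and 4.08, 4.18 and 3.90 with tricresyl phosphate. These groups overlapped, with a difference of −0.13 ± 0.14, and the other probe of the gene differed by 0.16. Acot1, Acot2 and Acot3 are close paralogues, so a probe of one may also bind transcripts of another. Acot12, a cytosolic acetyl-CoA thioesterase, was at 0.81, 0.11 and 0.58 with corn oil and 0.81, 0.67 and 0.73 with tricresyl phosphate. Its difference of 0.24 ± 0.18 rested on corn oil replicate 2 and was 0.044 without that animal.

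Several genes known as sensitive targets of PPAR alpha varied more between animals of 1 group than between the groups. Pdk4, a kinase that shuts off pyruvate dehydrogenase and so spares glucose, was at −0.85, −1.91 and −1.35 with corn oil and −1.37, −0.41 and −2.41 with tricresyl phosphate. The treated group held both the highest and the lowest animal, which were 3.99-fold apart, and the difference between groups was −0.026 ± 0.53. Angptl4, a secreted inhibitor of lipoprotein lipase, was at 5.30, 4.98 and 4.52 with corn oil and 4.91, 5.36 and 3.78 with tricresyl phosphate. Again tricresyl phosphate replicate 2 was highest and replicate 3 lowest, 2.99-fold apart, and the difference between groups was −0.25 ± 0.43. The other probe of Angptl4 differed by −0.054. Pex11a, which drives the division of peroxisomes, was at 5.98, 5.36 and 5.71 with corn oil and 5.73, 5.80 and 4.89 with tricresyl phosphate. Here too tricresyl phosphate replicate 3 was lowest, and the difference was −0.21 ± 0.29, while its 3 probes ranged from −0.21 to 0.03. Without tricresyl phosphate replicate 3 the differences of Pdk4, Angptl4 and Pex11a were 0.48, 0.20 and 0.085.

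Vnn1, a membrane pantetheinase that makes cysteamine, followed the same animals at a smaller scale. It was at 4.88, 4.54 and 4.85 with corn oil and 4.91, 5.09 and 4.59 with tricresyl phosphate, a difference of 0.11 ± 0.16. Corn oil replicate 2 and tricresyl phosphate replicate 3 were its lowest animals, as in Ehhadh. Ppargc1a, the coactivator that drives mitochondrial gene expression, lay between −0.62 and −0.24 with corn oil and between −0.44 and −0.22 with tricresyl phosphate, a difference of 0.071 ± 0.13.

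**Figure D3:**
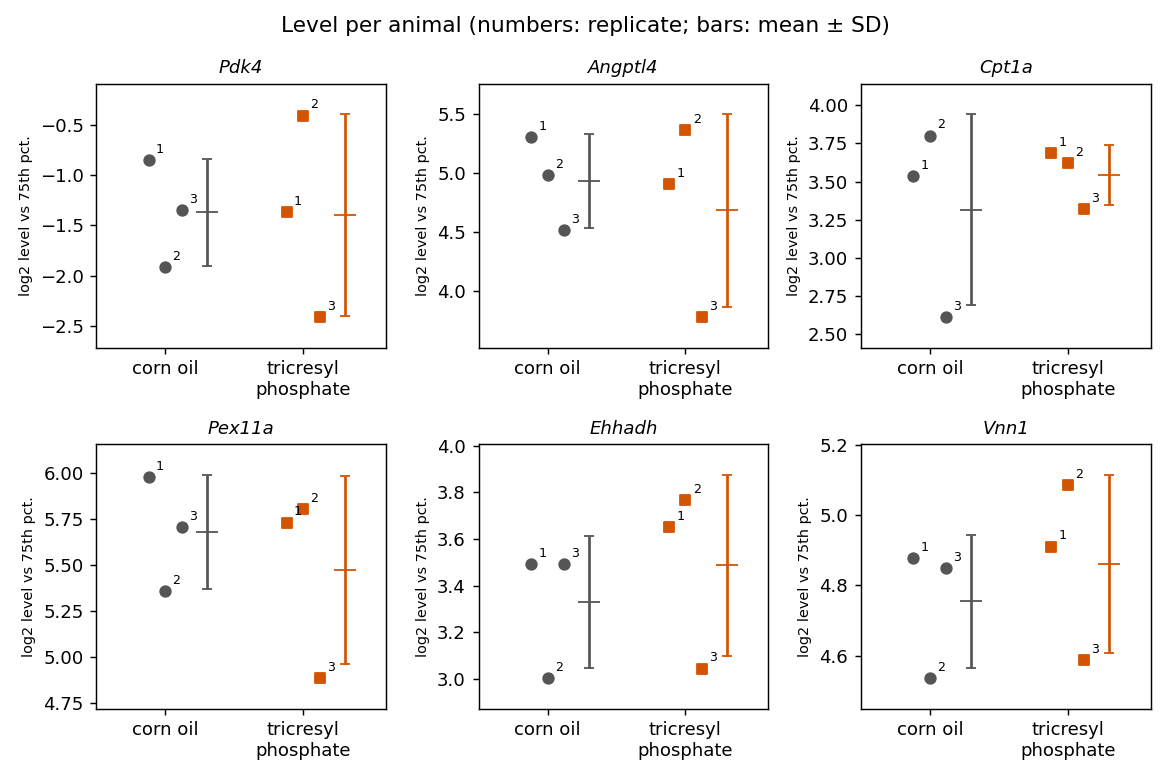
Log2 level relative to the array's 75th percentile in each animal (circles corn oil, squares tricresyl phosphate, numbers the replicate), with group mean ± SD of 3 animals, for 6 members. In Pdk4, Angptl4, Ehhadh and Vnn1 tricresyl phosphate replicate 2 is the highest animal, and in Pdk4, Angptl4 and Pex11a replicate 3 is the lowest; the vertical scales differ and do not start at 0.

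Across the members, the animals differed more than the groups. Tricresyl phosphate replicate 2 was the highest animal in 14 of the 35 members and corn oil replicate 1 in 12, where they were so in 13.4% and 26.4% of all genes. Corn oil replicate 2 was the lowest in 14 members and tricresyl phosphate replicate 3 in 11, where they were so in 15.5% and 28.2% of all genes. Taking each member relative to its mean over the 6 animals, the medians over the members were 0.084, −0.090 and 0.030 in corn oil replicates 1, 2 and 3, and 0.047, 0.078 and −0.10 in tricresyl phosphate replicates 1, 2 and 3. So each group held 1 animal below the rest, and the ranges of the groups overlapped. Over all genes tested the same medians were 0.037, 0.011 and 0.017 with corn oil and 0.011, −0.016 and −0.049 with tricresyl phosphate. Tricresyl phosphate replicate 3 was thus the lowest animal over all genes as well. For the mitochondrial members alone these medians ran from −0.12 to 0.071 with corn oil and from −0.050 to 0.085 with tricresyl phosphate. For the peroxisomal members they were 0.12, 0.049 and 0.12 with corn oil and 0.065, −0.024 and −0.26 with tricresyl phosphate, so that corn oil replicate 2 lay below tricresyl phosphate replicate 1.

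**Figure D4:**
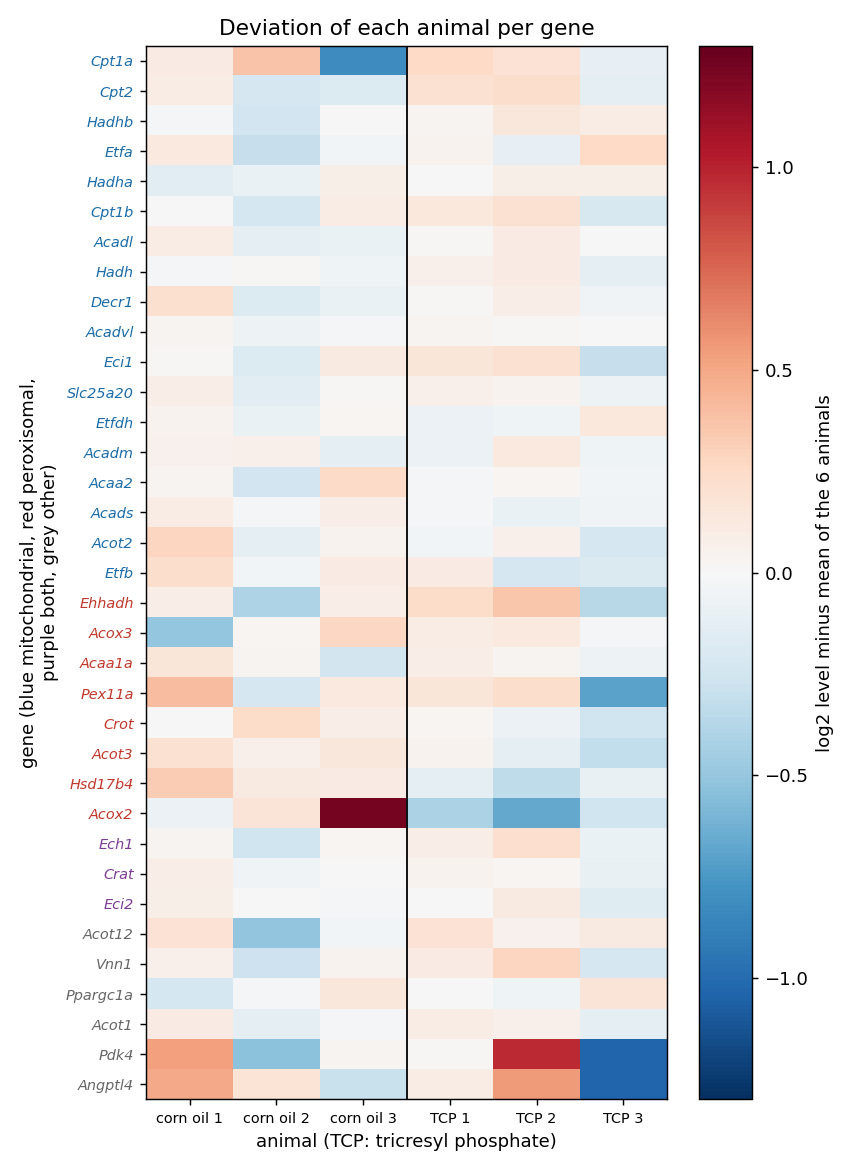
Log2 level of each of the 35 members in each animal, minus its mean over the 6 animals (red above, blue below; TCP stands for tricresyl phosphate). Corn oil replicate 2 and tricresyl phosphate replicate 3 are blue in many rows, and Pdk4 and Angptl4 span the widest range within the treated group.

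Within groups, Pdk4 had an SD of 0.80 and Angptl4 one of 0.64, above those of 97.1% and 95.3% of all genes. Of the 35 members 15 exceeded the all-gene median SD of 0.17. In the fifth of genes with the highest signal, which held 28 of the members, the median SD was lower, at 0.107. The median over all members was 0.157. The 2 animals with low members, corn oil replicate 2 and tricresyl phosphate replicate 3, also had the highest median of the hepatocyte markers. Of 14 such markers 12 were measured, and relative to each marker's mean over the animals their median level was 1.36 and 0.76 in these 2 animals and between −0.84 and −0.14 in the others. Their summed linear signal, in units of the array's 75th percentile, ranged from 18.7 to 30.6 with corn oil and from 19.2 to 23.5 with tricresyl phosphate. None of the measured markers was at 0, while Cps1 and Tat did not pass the filter on dim signals. Not every marker followed the median, since Apoc3 was lowest in these 2 animals (2.78 and 2.74) and Fga highest in tricresyl phosphate replicate 1. The proximal tubule marker Slc7a13 was also highest in them (4.52 and 3.97), while the median of the proximal tubule markers there was 0.0059 and −0.053. The link of any marker to the low members was not tested. Without both animals 22 of the 35 members lay above 0, as with all 6, and the peroxisomal median was −0.073. Without corn oil replicate 2 alone, 14 lay above 0.

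All 16 proximal tubule markers listed passed the filter on dim signals. Their summed signal ranged from 1988 to 2090 with corn oil and from 1723 to 2063 with tricresyl phosphate. Their median difference was −0.077, with 6 higher and 10 lower. Of the 12 adipocyte markers 7 were measured, with sums from 2.65 to 3.25 with corn oil and from 2.98 to 3.09 with tricresyl phosphate, while Lep, Retn and Car3 did not pass the filter. Among them Fabp4, a fatty acid binding protein of adipocytes and of some other cells, was at −4.38, −4.34 and −5.46 with corn oil and −3.43, −2.14 and −3.41 with tricresyl phosphate. The groups did not overlap, the difference was 1.73 ± 0.46, and limma gave p values of 0.00904 unadjusted and 0.811 adjusted. Fabp4 was dim, since the lowest level well above background was between −6.03 and −5.53 on the arrays. The 7 adipocyte markers together had a median difference of 0.025, with 4 higher and 3 lower. Of 10 collecting duct markers 8 were higher with tricresyl phosphate, with a median difference of 0.16 and sums from 192 to 242 with corn oil and from 204 to 249 with tricresyl phosphate. The part of these cell types in the values of Hsd17b4 and Acox2 was not tested. Differences also moved with signal, since 28 of the 35 members lay in the fifth of genes with the highest signal, where the median difference of all genes was −0.072 and 24.0% lay above 0. Of these 28 members 18 lay above 0. Quantile normalization brought the median of these genes to −0.00025, and the mitochondrial and peroxisomal medians to 0.13 and −0.13.

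Other genes of the pathway came from lists also made by name with earlier results of these data known. They gave 0 calls at an adjusted limma p under 0.05 in either direction. At an unadjusted limma p under 0.05, 2 genes of these lists were higher, where 1.63% of all genes were. At the same threshold 3 were lower, Pecr, Cyp4a3 and Slc16a1, where 3.86% of all genes were. The number of measured genes in each list is given below. Of 29 measured peroxisomal genes outside the 35, 12 were higher and 17 lower, with a median of −0.040. Pecr, a reductase of trans-2-enoyl-CoA, differed by −0.34 ± 0.12, with treated animals from 3.59 to 3.82 and corn oil animals from 3.86 to 4.19. Acot8, a further peroxisomal thioesterase, differed by −0.22 ± 0.095, and its other probe by −0.11.

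Of 14 measured further mitochondrial genes 5 were higher and 9 lower, with a median of −0.012. Acadsb, a dehydrogenase of short branched chains, differed by 0.19 ± 0.088. Acacb, which makes the malonyl-CoA that blocks Cpt1, differed by 0.32 ± 0.16, and Mlycd, which removes malonyl-CoA, by −0.21 ± 0.17. Among 15 peroxins, the proteins that build peroxisomes, 7 were higher and 8 lower, with a median of −0.0031. Pex11g differed by −0.22 ± 0.11 and Pex26 by −0.27 ± 0.14, while the other probe of Pex26 gave 0.072.

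The genes of PPAR alpha control centred on equality. Ppara itself was at 0.23, 0.71 and −0.37 with corn oil and −0.21, 0.70 and 0.08 with tricresyl phosphate, with a difference of 0.0014 ± 0.34. Of 15 measured control genes 7 were higher and 8 lower. Lpin1, a coactivator, differed by 0.29 ± 0.20, Esrra, a nuclear receptor of mitochondrial genes, by −0.12 ± 0.091, and Pparg by −0.24 ± 0.19. The other probe of Pparg gave 0.28.

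Among 15 measured further targets of PPAR alpha 10 were higher and 5 lower, with a median of 0.062. Cyp4a3, a fatty acid omega-hydroxylase, was at 7.92, 8.07 and 8.49 with corn oil and 7.76, 6.91 and 6.73 with tricresyl phosphate. The treated animals lay below the corn oil animals. The difference was −1.03 ± 0.30, and limma gave an adjusted p of 0.811. The close paralogue Cyp4a2 differed by −0.12 ± 0.12, with 0.22 for another of its probes, and a probe of one may bind transcripts of the other. Cyp4a1 was at 6.13, 5.36 and 5.69 with corn oil and 5.96, 6.20 and 5.73 with tricresyl phosphate, so the groups overlapped. Ucp2, a mitochondrial carrier, differed by 0.40 ± 0.22.

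Among 7 ketone body genes 4 were higher and 3 lower. Slc16a1, a monocarboxylate carrier, lay between 2.48 and 2.77 with corn oil and between 2.18 and 2.43 with tricresyl phosphate, a difference of −0.36 ± 0.12. Limma gave an adjusted p of 0.811. Of 9 measured genes of fatty acid activation and uptake 3 were higher and 6 lower, among them the transport protein gene Slc27a1 at 0.22 ± 0.12, its relative Slc27a4 at 0.10 ± 0.099 and the acyl-CoA binding protein gene Dbi at −0.11 ± 0.091. The other pyruvate dehydrogenase kinases gave 0.20 ± 0.089 for Pdk2, 0.091 ± 0.11 for Pdk1 and 0.018 ± 0.11 for Pdk3.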

How the data were processed

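RNA of each animal was labelled with Cy3 and hybridised to a 1-colour Agilent array. The authors quantified the arrays with Agilent Feature Extraction (10.7 per the submitters' processing notes, 10.7.1.1 per the file headers), and the deposited intensity values are linear. The processed signal is background-subtracted and detrended within the array. The authors' deposited value table holds the same intensity over the array's 75th percentile, in linear scale, with column medians from 0.1094 to 0.1152. The program that wrote this table was not stated in the sources at hand.

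The 61537 non-control probes were named by accession through RefSeq (GRCr8), which gave 1 symbol to 28206. Array medians of processed signal ranged from 102.6 to 133.2, over a background of 33.0 to 41.0. Log2 signals minus the array's 75th percentile were used, outlier spots were set missing (0 among the members), and probes well above background on at least 3 of 6 arrays were kept (43099). Each gene was represented by its brightest kept probe. The 2 groups were compared by limma 3.58.1 (R 4.3.3). Its two-sided p-values were adjusted over all genes by the Benjamini-Hochberg method, at a threshold of 0.05. Corn oil replicate 1 was on a slide and scan of its own, and the other 5 arrays shared a slide. In simulated data for this comparison (31637 genes), 100 genes were changed by 1 and 100 others by 2 on the log2 scale. The noise was independent and normal, with each gene's SD within groups. The same fit called 56 of the former and 90 of the latter, with 6 false calls. With fewer changed genes the adjusted threshold is stricter, so these shares do not carry over to such data. The number of arrays limits the precision.

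Members and lists were chosen with earlier results of these data known. Named in full were the 8 members of smallest p in each direction and 13 given members, and 3 genes of each other list with the smallest p plus Ppara and Cyp4a1, and some genes under this rule are not reported here. Alternatives were other normalizations, background correction, filters, probe rules, variance models, slide and replicate blocks and left-out arrays. For normexp the median spot signal was used, with an offset of 50.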

Additional observations from a re-analysis of the deposited data

How the results depend on the processing

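Over 19 alternatives, 0 of the 35 members passed the adjusted threshold, and the lowest adjusted limma p of any member was 0.693. At an unadjusted p under 0.05, 2 members and 1737 genes passed. Normexp, and the variance model with a trend, gave 2 genes past the threshold, and leaving out 1 array gave 0 to 1. The mitochondrial median was 0.13 under quantile, cyclic loess and normexp normalization. Leaving out 1 array moved the number of members above 0 between 14 and 26, the mitochondrial median between 0.0046 and 0.071, the peroxisomal median between −0.31 and −0.031 and the distance between them between −0.35 and −0.10. With both low animals left out (replicate 2 of corn oil, replicate 3 of tricresyl phosphate), the peroxisomal median was −0.073 and the distance −0.11. The cause of these changes was not tested. The differences of Hsd17b4, Acox2, Acot3, Crot, Etfb, Hadhb, Hadha, Cpt2, Acot12, Ech1, Acadl and Acadvl kept their sign under all 19. Not all of these were able to turn a sign. The filters on dim probes, the outlier flags, the variance model and the replicate block left the members' differences unchanged. The authors' value table all but repeated them, and the slide block gave the same fit as leaving out corn oil replicate 1.

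The sign turned in smaller differences. Acadm was at −0.017 with the median of each array, Acads at 0.018 and Pdk4 at 0.061 under normexp, and Acot2 at 0.016 with the mean over probes. Blocking on the slide drops corn oil replicate 1 from the comparison and gave 0.23 for Pdk4 and −0.028 for Ppargc1a. Over the sets with 1 array left out, or with both low animals left out, Cpt1a ran from −0.13 to 0.58, Acaa1a from −0.079 to 0.12, Acadm from −0.062 to 0.065, Ehhadh from −0.0044 to 0.38, Vnn1 from −0.0054 to 0.24, Ppargc1a from −0.028 to 0.16, Pex11a from −0.37 to 0.085, Pdk4 from −0.52 to 0.48, Angptl4 from −0.59 to 0.23 and Etfa from −0.079 to 0.23.

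Deviations from the group means correlated at 0.0864, −0.0506 and −0.0438 between same-numbered animals, and corn oil replicate 2 correlated best with tricresyl phosphate replicate 3. Within each group of 3 these deviations cancel, so the correlations cannot show whether the replicate numbers pair the animals. With the replicate number as a block each block held 1 animal of each group, so the differences stayed as they were. The median of the members was 0.033 and 22 of 35 lay above 0, while 1927 genes had an unadjusted limma p under 0.05. Signal over background limits the dimmest members, Acox2 and Acox3.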
